A study of Mus musculus with 2 samples.

Results

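The regions described here are the weak replicated regions of chromatin accessibility in mouse megakaryocyte-erythroid progenitors (MEP): stretches that were called in the analysis of both libraries but whose rank did not repeat well enough to enter the strictest list. They were chosen by merging the 127735 peaks of the current replicated list, on chromosomes 1 to 19, X and Y, into 83876 regions and keeping the 37786 that overlapped no peak of the conservative list (45.0%). The other 46090 overlapped such a peak and are called passing regions. The conservative list holds peaks with an irreproducible discovery rate (IDR) between the libraries of at most 0.05. IDR is a measure of how well the rank of a peak in the first library repeats in the second. ATAC-seq uses the Tn5 transposase to insert adapters into open chromatin, and both libraries were made from 50000 cells of C57BL/6J males 5 to 6 weeks old, for which the labels name no treatment or genetic change. They form 1 group, biological replicates 1 and 2, with separate biosample entries and the same donor entry. No label says if more than 1 animal was used. The label of replicate 1 names a pair of sequencers and that of replicate 2 names none, and the read depth of the libraries is unknown. There is thus no contrast between conditions, and the comparisons are between classes of region and between libraries. All coordinates are on mm10 (GRCm38).

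MEP are bone marrow progenitors that give rise to red cells and to platelet-forming megakaryocytes. GATA1 directs both fates and binds the letters AGATAA or TGATAA, often beside an E-box bound by TAL1, in which case the pair is a composite site. CTCF binds a long motif at insulators and chromatin loop anchors. PU.1, an ETS-family factor, drives the myeloid fates that MEP have largely left. Accessible regions near a transcription start site (TSS) are mostly promoters, many of them rich in CpG, while those far from a TSS include enhancers, which differ more between cell types.

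The following 8 windows of 201 bases show weak regions near lineage genes, each with a GATA match. They were taken, with capitals on the GATA matches or on the whole composite match, from the plus strand of the NCBI GRCm38.p6 genome around the region's summit. The first 6 have the highest mean fold over the libraries within 50 kb of erythroid, megakaryocyte and transcription factor genes (2 for each list), and the last 2 hold a composite site. Windows over an annotated UTR were passed over.
Rhag, chr17:40763776-40763976: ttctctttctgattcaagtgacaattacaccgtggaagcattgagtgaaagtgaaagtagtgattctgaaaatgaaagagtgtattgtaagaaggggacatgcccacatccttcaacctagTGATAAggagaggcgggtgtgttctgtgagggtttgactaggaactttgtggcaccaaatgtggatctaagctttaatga
Klf1, chr8:84884798-84884998: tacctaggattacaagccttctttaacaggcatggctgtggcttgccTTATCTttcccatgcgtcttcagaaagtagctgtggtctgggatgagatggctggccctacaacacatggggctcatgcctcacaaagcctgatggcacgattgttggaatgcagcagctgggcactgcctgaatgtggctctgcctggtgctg
Pf4, chr5:90758221-90758421: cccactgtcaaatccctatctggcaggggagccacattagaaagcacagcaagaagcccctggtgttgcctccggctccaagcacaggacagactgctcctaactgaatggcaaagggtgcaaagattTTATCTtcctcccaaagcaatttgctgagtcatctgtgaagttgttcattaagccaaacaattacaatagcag
Gp9, chr6:87796337-87796537: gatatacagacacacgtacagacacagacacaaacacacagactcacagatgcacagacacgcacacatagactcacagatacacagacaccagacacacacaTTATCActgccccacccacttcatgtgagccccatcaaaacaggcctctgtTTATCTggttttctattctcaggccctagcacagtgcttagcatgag
Fli1, chr9:32570566-32570766: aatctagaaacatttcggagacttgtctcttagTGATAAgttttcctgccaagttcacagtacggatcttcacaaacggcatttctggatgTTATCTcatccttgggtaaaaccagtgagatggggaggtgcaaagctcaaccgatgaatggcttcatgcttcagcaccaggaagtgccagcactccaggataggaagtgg
Gfi1b, chr2:28663020-28663220: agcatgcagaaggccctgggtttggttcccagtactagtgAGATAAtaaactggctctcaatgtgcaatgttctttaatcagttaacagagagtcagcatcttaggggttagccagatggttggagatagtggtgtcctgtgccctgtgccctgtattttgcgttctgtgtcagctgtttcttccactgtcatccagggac
Gp6, chr7:4397807-4398007: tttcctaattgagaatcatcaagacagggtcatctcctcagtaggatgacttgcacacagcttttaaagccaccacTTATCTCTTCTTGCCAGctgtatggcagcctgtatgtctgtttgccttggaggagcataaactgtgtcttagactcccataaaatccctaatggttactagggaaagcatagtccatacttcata
Tfrc, chr16:32628266-32628466: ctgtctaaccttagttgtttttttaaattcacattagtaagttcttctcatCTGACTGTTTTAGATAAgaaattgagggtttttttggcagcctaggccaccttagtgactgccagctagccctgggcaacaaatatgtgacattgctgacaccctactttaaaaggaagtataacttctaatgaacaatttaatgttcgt

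The window labelled Rhag, a gene for a red cell membrane protein, lay 47.2 kb upstream of it between genes, with a fold over local background of 6.12 in replicate 1 and 4.99 in replicate 2. The Klf1 window, 17.0 kb upstream of this erythroid transcription factor gene and in an intron of Syce2, had folds of 4.01 and 5.92. For Pf4, which encodes a platelet chemokine, the window was 14.1 kb upstream and its folds were 5.46 and 4.13. The TSS nearest to its summit was that of Cxcl5, at 1057 bp. Neither library was the higher throughout these 3 windows. The Gp9 window, 18.4 kb downstream in an intron of Rab43, had folds of 3.34 and 5.36 and carried 2 GATA matches. Annotated repeat made up 53.2% of its bases. The Fli1 window, 27.8 kb upstream of this ETS factor gene, had folds of 3.18 and 5.58 and also carried 2. The Gfi1b window, 41.1 kb upstream of the gene of a repressor needed for red cells and platelets and inside a Tsc1 intron, had close values of 4.16 and 3.94. The Gp6 window began the list of composite sites at 163 bp upstream of the TSS, with folds of 3.18 and 5.25. The Tfrc composite site was 19.4 kb into the gene, in an intron, with folds of 3.73 and 3.94, and Tfrc encodes the transferrin receptor. The nearest TSS was also another gene's for the Rhag (Crisp2, 30.2 kb), Klf1 (Gcdh, 9.02 kb) and Tfrc (Tnk2, 15.5 kb) windows. For the Gp9 and Gfi1b windows it was that of Rab43 (13.3 kb) and Tsc1 (4.55 kb). All 8 regions were in the longer, pseudoreplicated list of each library, since the choice asked for a fold in both. A match is a string of letters, not a measured binding site, and a region need not act on the gene it lies near.

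Weak regions were small and shallow. These values are described without a test, because IDR ranks peaks by significance and so chose the members by it. The median pooled fold of weak regions was 3.37 (quartiles 2.87 and 4.06), against 6.60 (5.15 and 8.60) for passing regions. The median −log10 p was 9.53 against 37.9. Their median width was 307 bp against 544 bp, and 77.2% held a single peak, against 53.3%. Together they covered 13.2 Mb, or 0.497% of the genome outside gaps, and passing regions covered 28.3 Mb. More than 1 in 2 weak regions (19906, 52.7%) had the highest IDR the ranking gives, 0.392. At the threshold the classes met without a gap in fold. The 5 weak regions nearest to it had pooled folds between 4.64 and 5.27, and the 5 nearest passing regions between 3.10 and 5.03. The 4920 weak regions with an IDR of 0.05 to 0.1 had a median fold of 4.21 and a median width of 336 bp, and the 4121 passing regions of 0.025 to 0.05 had 4.50 and 363 bp.

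**Figure D1:**
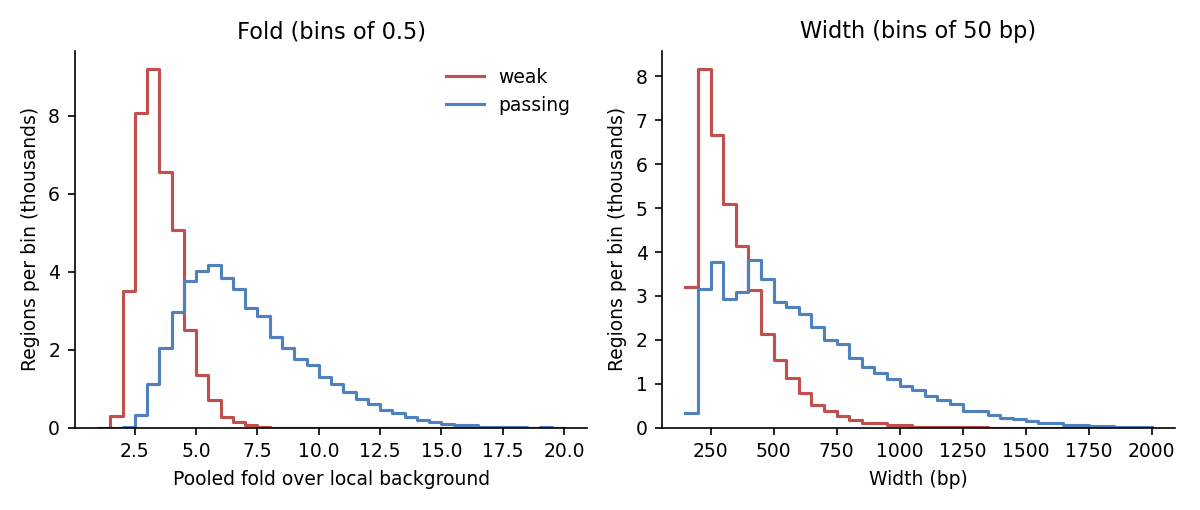
Number of regions, in units of 1000, by pooled fold over local background (left, bins of 0.5) and by width in bp (right, bins of 50 bp), for weak and passing regions. The weak curve peaks near its median fold of 3.37 and median width of 307 bp, and overlaps the left part of the passing curve; 24 passing regions lie beyond the fold axis and 37 beyond the width axis.

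In each library on its own, fewer weak than passing regions were called. The pseudoreplicated list of replicate 1 covered 13758 weak regions (36.4%, Wilson 95% interval 35.9 to 36.9), and that of replicate 2 covered 15640 (41.4%, 40.9 to 41.9). Over all merged regions the same shares were 68.7% and 71.6%. Both lists covered 8247 weak regions (21.8%) against 60.9% of all regions. Replicate 1 alone covered 5511 weak regions, replicate 2 alone 7393, and neither list covered 16635 (44.0%). These shares follow from the choice of members and carry no test. Of the weak regions, 76.6% were in the pooled pseudoreplicated list, against 99.7% of passing regions. The pooled IDR-thresholded list held 7.76% against 85.3%, and the archived replicated list 94.3% against 99.3%. The regions called in both libraries were the widest and highest, with a median width of 420 bp and pooled fold of 4.12, against 257 bp and 3.01 for those called in neither. Among the 8247, the median fold was 3.64 in replicate 1 and 3.94 in replicate 2, the fold was higher in replicate 2 in 57.7%, and it agreed within 1.5 times in 84.2%. Fold is not scaled between libraries. A library's fold is that of the strongest peak in its overlapping merged region, and that peak can lie outside the weak region. A weak region in a Vwf intron (chr6:125572345-125572635), 57 bp from a passing region, had a fold of 11.2 in replicate 2. Its pooled fold was 3.52. How many of the 8247 were affected was not counted. Across the 8247 the Spearman correlation between replicate 1 and replicate 2 was 0.34. It was 0.91 across the 42793 passing regions called in both, where the range of folds is wider. Regions are not independent replicates, and the selection on rank bears on both values.

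**Figure D2:**
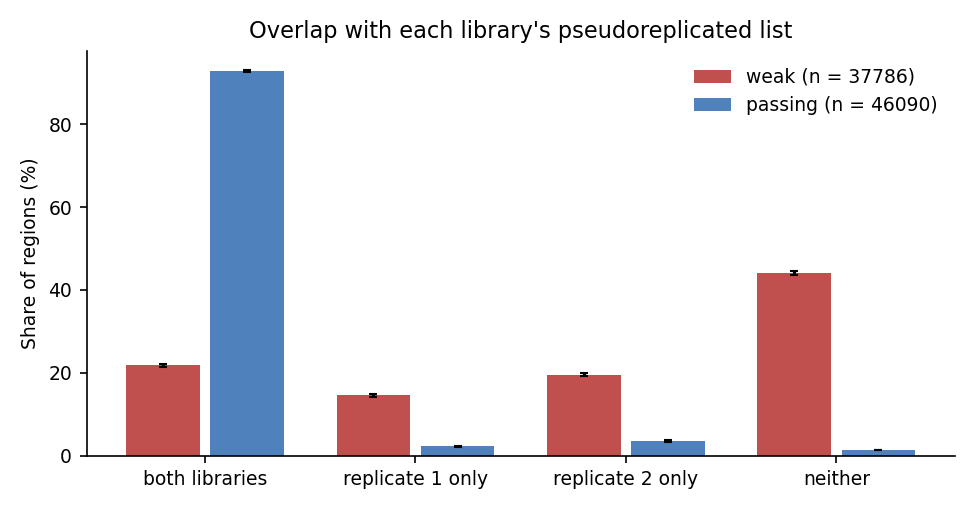
Share of weak and passing regions, in percent, that overlap the pseudoreplicated list of both libraries, of a single library or of neither; bars show the share and whiskers Wilson 95% intervals. Weak regions are spread over the 4 states, with 44.0% in neither list, while 92.8% of passing regions are in both.

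The members of highest fold would not have been called weak by fold alone. The highest of all, chrX:146232185-146232747, lay between genes with Amot the nearest at 727 kb, and had folds of 6.12 in replicate 1 and 14.4 in replicate 2, an IDR of 0.125 and a GATA match. It was 1 of only 9 weak regions (0.0238%) in the IDR-thresholded lists of both libraries, against 48.7% of passing regions. An intron region of Col8a1, a collagen gene (chr16:57634232-57634485), had 6.12 and 12.6. A region 68.6 kb from Fam110c with a CTCF match (chr12:31005099-31005357) had 5.14 and 11.6. In these 3, replicate 2 was more than 1.5 times higher. The reverse held for a region 234 kb from 9530002B09Rik (chr4:122455197-122455398), with 9.30 and 6.04, and for a region 14.4 kb from Zfp280d (chr9:72260278-72260677), with 9.55 and 6.04. Of the other 5 among the highest 10 distal regions, those in introns of Ralgapa2 and Focad were also higher in replicate 1 (9.50 against 5.52 and 9.09 against 5.72). Those in an intron of Psd3, near Epb41l4a on chromosome 18 and near Erbb4 were higher in replicate 2, with folds of 10.2, 9.84 and 8.99 against 5.39, 5.37 and 5.14. All 10 thus differed by more than 1.5 times between the libraries, against 15.8% of the 8247, and these 10 were selected on pooled fold and on IDR, so no test is given.

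The 5 weak promoters of highest fold also differed by more than 1.5 times between the libraries. The region at Plcb4, a phospholipase gene (chr2:135988472-135988841), had folds of 10.2 and 5.80, and 93.0% of the 201 bases at its summit were annotated repeat. The promoter of Sh2d1b1, an adaptor of natural killer cells, had 8.57 and 5.51 with a GATA match. Zfp934, a zinc finger gene, had 8.08 and 4.73. Tmsb15b2 and Gm7173, both on the X chromosome, were higher in replicate 2 instead, with 8.93 against 4.90 and 8.14 against 4.65. The summit at Tmsb15b2 also lay inside the annotated span of Tmsb15l, so the region may belong to either gene.

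Weak regions lay in promoters less often than passing regions and in gene bodies and between genes more often, but not all of this held among regions of like width. Regions counted as promoter when the TSS of a protein-coding transcript was at most 1 kb from the summit. Promoters held 12.4% of weak regions (4673) against 27.8% of passing regions, an odds ratio of 0.367 (95% interval 0.354 to 0.381). Introns held 45.3% against 35.8% (odds ratio 1.49), the space between genes 37.0% against 32.1% (1.24), and exons 5.36% against 4.36% (1.24). By two-sided Fisher's exact tests over regions, with Benjamini-Hochberg adjustment over these 4 classes, the adjusted p was at most 4e-300 for promoters, 5.81e-171 for introns, 4.25e-50 between genes and 2.02e-11 for exons. The promoter share was lower and the intron and intergenic shares higher on each of the 21 chromosomes. The limit of 150 to 400 bp kept 72.3% of weak regions (27330) and 28.9% of passing regions (13342). It also selects on strength, since the passing regions it kept had a median fold of 5.46 and −log10 p of 24.8, against 6.60 and 37.9 for all of them, so width and strength cannot be told apart here. Within it, the promoter shares were 10.8% and 11.3% (odds ratio 0.957, 95% interval 0.896 to 1.02, adjusted p = 0.257 by Fisher's exact test). The exon difference was likewise lost there (1.02, adjusted p = 0.641) and the intergenic one turned round (0.919, adjusted p = 0.000188), by the same exact test. The intron difference was kept at a smaller size (1.10, adjusted p = 3.93e-05, Fisher's exact test). These p-values count regions of the same pair of libraries, so they do not measure the spread between animals.

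**Figure D3:**
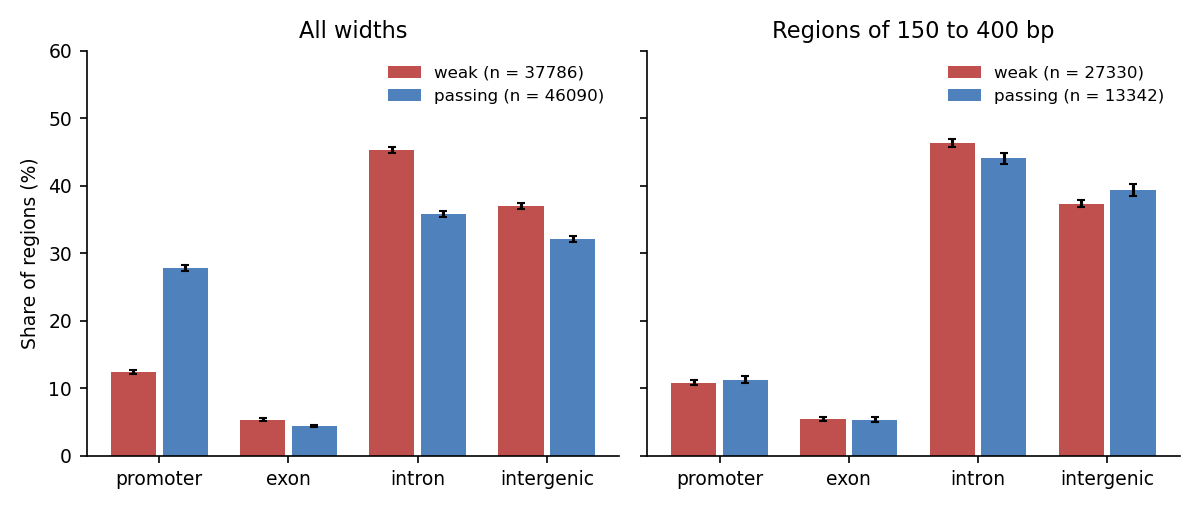
Share of weak and passing regions, in percent, in promoters, exons, introns and between genes, for all widths (left) and for regions of 150 to 400 bp (right); whiskers are Wilson 95% intervals. The promoter gap of 12.4% against 27.8% on the left becomes 10.8% against 11.3% on the right.

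Weak regions were less often rich in CpG. A region counted as CpG-rich when its 201 central bases had at least 50% GC and an observed to expected CpG ratio of at least 0.6, and 7.75% of weak regions did (2927) against 23.3% of passing regions (odds ratio 0.276, Fisher's exact test, p at most 1e-300). Within promoters the shares were 40.4% and 69.7% (odds ratio 0.296), and in distal regions 3.13% and 5.53% (0.552). Among regions of 150 to 400 bp the odds ratio was 0.814, so the direction stayed but most of the size did not. Weak regions with at least 50% of these bases in annotated repeats made up 5.48%, against 3.08% of passing regions.

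Weak regions lay farther from a TSS than passing regions, at a median of 16300 bp against 9816 bp. The median gap from a weak region to the nearest passing region was 7.57 kb, and from a passing region to the next 6.59 kb. For weak promoters the median gap was 1.81 kb. Within 1 kb of a passing region lay 17.3% of weak regions, and 8.55% lay more than 50 kb from any. Merging of touching peaks and the choice of regions outside the conservative list set the shortest gaps, so no test is given. The weak share of all regions ran from 41.9% on Y, with 13 weak regions, to 46.5% on chromosome 1.

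The centres of distal weak regions held more matches to lineage and architectural motifs than their flanks. GATA was matched in 37.0% of the 33113 weak distal regions, within 100 bp of the summit, against 19.6% in a window of the same length centred 500 bp away. Regions with a match in the centre only outnumbered those with a match in the flank only by 2.47 times (9676 against 3920). The E-box and GATA composite (CTGNNNNNNNNAGATAA) was rarer, at 1.75% against 0.302%, with a ratio of 5.90. The CTCF motif (CCANNAGNNGGC) was matched in 10.1% against 1.78%, with the highest ratio, 6.24. The KLF motif of erythroid KLF1 (CCACACCC, CCACGCCC, CCCCACCC or CCCCGCCC) reached 12.4% against 6.94% (1.93). PU.1 (GAGGAAGT) reached 2.78% against 1.32% (2.15), and AP-1 with NFE2 (TGACTCA or TGAGTCA) 5.99% against 3.32% (1.86). GC box (GGGGCGG), RUNX (TGTGGTT), ETS (CAGGAAG or CCGGAAG) and MEIS (TGACAG) had ratios of 2.01, 1.64, 1.55 and 1.33. The largest adjusted p of these 10 motifs was 3.90e-39 by exact McNemar tests over regions, adjusted over 14 motifs. The remaining 4 did not pass the exact test: C/EBP (TTGCACAA, TTGCATAA, TTGCGCAA or TTGCGTAA) at 0.948 (adjusted p = 0.489), NFY (CCAAT followed by CA, CG, GA or GG) at 1.03 (0.315), NRF1 (GCGCNTGCGC) at 1.52 (0.0842) and STAT (TTCCNGGAA) at 1.21 (0.0975). Both strands were searched. Every composite match holds a GATA match, and KLF and GC box matches can share letters.

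Against passing distal regions, weak ones held fewer matches to 7 of the 14 motifs, of which CTCF alone kept its call within the limit on width, which also selects on strength. The GATA share was 37.0% against 42.3% of 33289 passing regions (odds ratio 0.800, adjusted p = 6.60e-44), the composite 1.75% against 3.34% (0.514, adjusted p = 8.88e-39), and CTCF 10.1% against 16.5% (0.573, adjusted p = 9.60e-127), by Fisher's exact tests over regions. KLF, GC box, NFY and NRF1 were also lower, with odds ratios of 0.861, 0.712, 0.888 and 0.432. PU.1 was higher in weak regions, 2.78% against 2.26% (1.24, adjusted p = 3.22e-05), as was STAT, 0.601% against 0.445% (1.35, adjusted p = 0.00929), by the exact test. The STAT call was lost with windows of 50 bp (adjusted p = 0.0941 by the exact test), within 150 to 400 bp (0.154) and in the lists of replicate 2 (odds ratio 1.19, 0.320) and replicate 1 (1.27, 0.138) alone. RUNX, ETS, AP-1, C/EBP and MEIS did not pass the test, with odds ratios between 0.904 and 1.07. Among regions of 150 to 400 bp, a limit chosen for motifs after these values were seen, GATA was higher in weak regions (35.5% against 31.4%, odds ratio 1.20, adjusted p = 4.01e-14, Fisher's exact test). There 5 motifs passed the test as higher in weak regions and CTCF alone as lower, while NRF1 kept its direction without passing (0.672, 95% interval 0.406 to 1.11). The composite did not pass the test (1.66% against 1.66%, odds ratio 1.00, 95% interval 0.843 to 1.19), PU.1 stayed higher (1.37) and CTCF was lower still (11.4% against 23.4%, 0.421). In each library's own lists, weak regions being those outside its IDR-thresholded list, the lower CTCF share was not seen. In replicate 2 it was 14.1% against 14.0% (odds ratio 1.01, 95% interval 0.955 to 1.06, adjusted p = 0.846) and in replicate 1 it was higher in weak regions, 14.3% against 13.3% (1.09, adjusted p = 0.00526), by Fisher's exact tests.

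Within the weak regions, the CTCF share was higher at each step of significance, and the GATA share was not. In 5 equal groups by pooled −log10 p, the distal members held CTCF matches in 3.28%, 6.14%, 8.98%, 13.8% and 18.6% from the lowest group to the highest. The GATA share was 31.8%, 37.1%, 39.3%, 39.2% and 37.8%, and the PU.1 share lay between 2.38% and 3.15%. By library, GATA was matched in 44.7% of the weak distal regions called in both, 34.7% of those in replicate 1 only, 40.4% in replicate 2 only and 32.6% in neither. The CTCF shares of these 4 states were 9.69%, 11.4%, 11.6% and 9.28%. The ratio of centre to flank was lower in weak than in passing regions for GATA (by a factor of 0.732, adjusted p = 3.95e-29), the composite (0.380, adjusted p = 1.73e-08) and CTCF (0.497, adjusted p = 1.66e-23), by Fisher's exact tests on regions matched in a single window. Within 150 to 400 bp the GATA factor was 1.13 (adjusted p = 0.0117, Fisher's exact test), and the composite lost its call (0.700, adjusted p = 0.221 by the same exact test). The CTCF factor was 1.07 in the lists of replicate 2 alone and 1.12 in those of replicate 1 alone, neither passing (adjusted p = 0.485 and 0.332, Fisher's exact tests). KLF, GC box, NFY and NRF1 were also lower, with factors of 0.885, 0.709, 0.837 and 0.388. Within 150 to 400 bp KLF (0.994), GC box (0.810) and NFY (0.992) lost their calls (adjusted p = 0.932, 0.120 and 0.932, Fisher's exact tests). NRF1 lost its call in the lists of replicate 2 alone (0.5825, adjusted p = 0.273 by the same exact test). RUNX, PU.1, AP-1 and STAT were higher, with 1.10, 1.25, 1.13 and 1.69, and each lost its call in several alternatives.

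**Figure D4:**
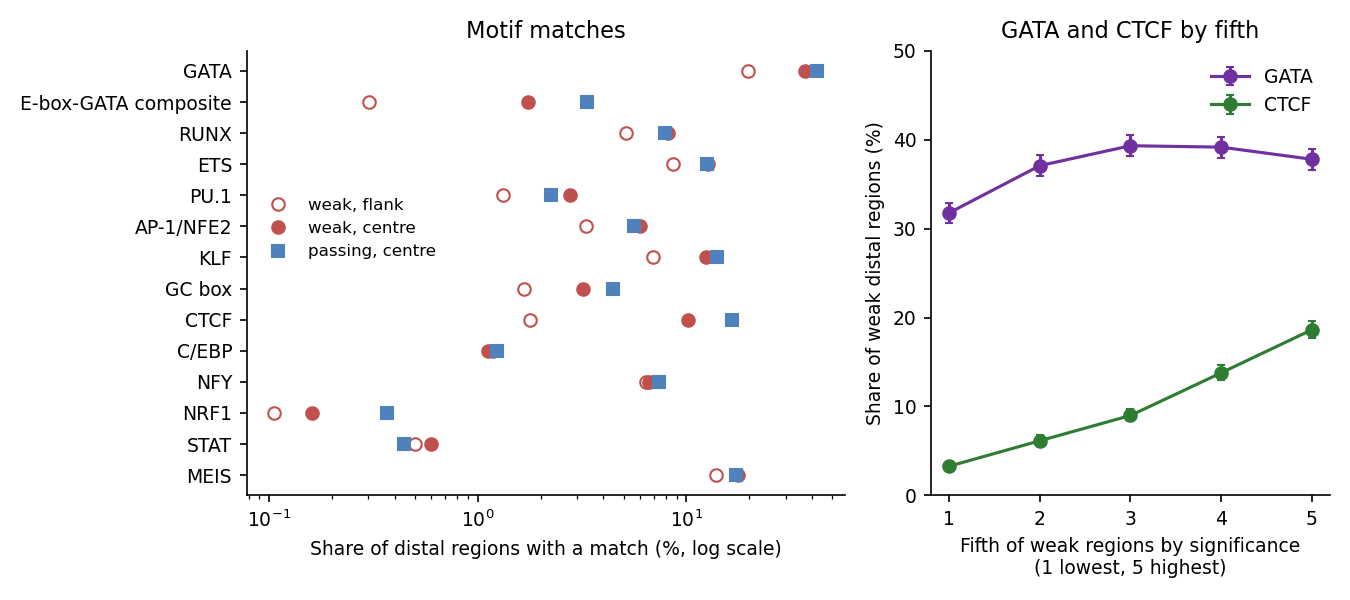
Left, share of distal regions with a motif match, in percent on a log scale, in the flank and centre of weak regions and the centre of passing regions; right, GATA and CTCF shares in 5 equal groups of weak regions by significance, with Wilson 95% intervals. CTCF rises from 3.28% to 18.6% over the groups, while GATA stays between 31.8% and 39.3%.

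For counts per gene, a promoter was the 1 kb to either side of any protein-coding TSS of the gene, and any overlap of a region counted, wherever its summit lay. By this rule weak regions were the only signal for 1727 of 21853 protein-coding genes (7.9%), and in 94.96% of these the region's summit was itself within 1 kb of a TSS. A further 11905 genes (54.5%) had a passing region within 1 kb of a TSS, 2682 of them with a weak region as well, and 8221 had neither. In the 1727 promoters the median fold was 3.48, 44.9% were CpG-rich, and 31.6% were called in both libraries. The MEP label was checked on marker genes: Gata1, Klf1, Epor, Zfpm1, Nfe2 and Kit had a passing promoter, and Itga2b had a weak one. Of the genes of other marrow cells, 4 of 24 granulocyte and macrophage, 2 of 19 mast, basophil and eosinophil, 6 of 20 B cell and 2 of 24 T and NK cell genes had a passing promoter. The lists were chosen with earlier results of these data known, so their counts are described and not tested. Accessibility is not expression, and fewer cells with an open site and a less open site in each cell cannot be told apart.

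Megakaryocyte and platelet genes had weak-only promoters in 9 of 25 cases (36.0%, Wilson 95% interval 20.2 to 55.5), against 7.9% of all genes, and 11 had a passing region. Erythroid genes had such promoters in 0 of 24 cases, with 22 passing. The Wilson 95% interval of that share, 0 to 13.8%, includes the 7.9% of all genes. Among genes of other cells, weak-only promoters were seen in 6 of 19 mast, basophil and eosinophil, 6 of 23 neuron, 5 of 24 granulocyte and macrophage, 3 of 20 B cell and 3 of 24 T and NK cell genes. A share above the background was therefore not limited to the platelet list. The Wilson 95% intervals of the mast, neuron and granulocyte lists began at 15.36%, 12.55% and 9.245%. Those of the B cell list (5.24 to 36.0%) and the T and NK cell list (4.34 to 31.0%) include the 7.9%. Haematopoietic transcription factors had 2 of 22, haem and iron genes 2 of 24, stem and progenitor genes 3 of 20, muscle genes 2 of 24, hepatocyte genes 1 of 24 and housekeeping genes 0 of 24. In the libraries' own lists the platelet count was 12 in replicate 1 and 8 in replicate 2, and the erythroid count was 2 in each. Over all genes these lists gave weak-only promoters to 10.7% of genes in either library, near the erythroid share of 8.33%.

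**Figure D5:**
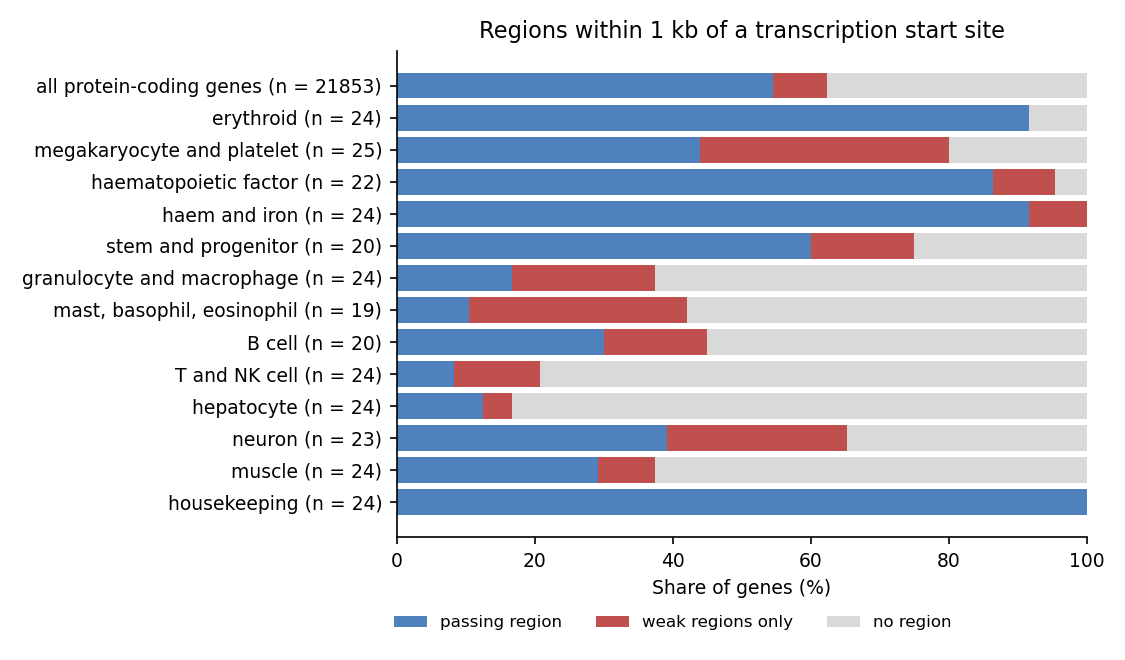
Share of genes, in percent, with a passing region, only weak regions or no region within 1 kb of a TSS, for all protein-coding genes and 13 lists with their number of genes. The weak-only part is 9 of 25 for megakaryocyte and platelet genes (Wilson 95% interval 20.2 to 55.5%). It is 0 of 24 for erythroid genes (0 to 13.8%) and 7.90% over all genes.

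The weak platelet promoters include genes of the receptors for collagen and fibrinogen and, of the von Willebrand factor receptor, Gp9 alone. Gp1ba and Gp5 of that receptor had a passing promoter, and Gp1bb had no promoter region. Gp6, the collagen receptor (region chr7:4397623-4398162, composite site shown above), had a pooled fold of 4.21. Itga2b, the integrin subunit used as the MEP and megakaryocyte marker CD41 (chr11:102469768-102470518), had folds of 3.04 in replicate 1 and 3.86 in replicate 2, and its nearest passing region was 2.11 kb away. Its partner Itgb3 (chr11:104608041-104608469) had a pooled fold of 3.50 and was called in neither library. F2rl2, a thrombin receptor (chr13:95696745-95697224), had 3.28 and 3.97. Gp9, of the von Willebrand factor receptor (chr6:87778558-87779416), had 2.92 and 3.25, and Treml1, a platelet granule receptor (chr17:48360421-48360985), 2.98 and 2.72. These 5 genes with a value in both libraries had an IDR between 0.0574 and 0.392. Vwf itself had a weak region in replicate 1 only (3.08) at a start site 6.17 kb from its most upstream one. Mmrn1, a carrier of factor V (chr6:60944539-60944978), was called in neither library, with a pooled fold of 3.20. GATA was matched in the regions of Gp6, Itga2b, F2rl2, Vwf and Treml1.

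Among transcription factors, the ETS gene Erg had a weak promoter at an internal start site 62.0 kb from its most upstream one (chr16:95524544-95525204), called in replicate 2 only with a fold of 5.65. Cbfa2t3, a corepressor in GATA1 and TAL1 complexes (chr8:122699021-122699433), had 3.52 and 3.13 and an IDR of 0.0557. Mecom, a stem cell factor gene, had 4.10 and 3.37 at an internal start site. Alad, a haem synthesis enzyme, was called in neither library, and Trf, transferrin, had 2.77 and 3.31. Promoters of genes of other lineages reached as high as these. Prg2, an eosinophil granule protein (chr2:84980091-84980626), had 5.20 and 4.45 with GATA and PU.1 matches, and Il5ra, the interleukin-5 receptor of eosinophils, had 3.68 in replicate 2 only. Fcer2a, the low-affinity IgE receptor of B cells (chr8:3692637-3693677, which overlaps the promoter window with its summit in an intron 1243 bp from the TSS), had 4.54 and 7.81, and Blnk, a B cell adaptor, 3.43 and 5.77. Csf3r, the granulocyte growth factor receptor, had 4.96 in replicate 2 only, again with GATA and PU.1 matches. The T cell kinase gene Lck had 3.09 and 3.59, at 249 bp from a passing region. Mpo of neutrophils, Prdm16 of stem cells, Elavl4 of neurons and Tnni2 and Des of muscle were called in neither library. Gad2 of neurons and Arg1 of hepatocytes had 2.98 and 4.19 in replicate 2 only. For Csf3r, Lck, Mpo and Tnni2 the start site lay 2.74, 15.3, 8.96 and 1.36 kb from the most upstream one.

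Around genes, 15872 of 21853 (72.6%) had at least 1 weak distal region within 50 kb of their most upstream TSS. Haematopoietic transcription factors had the most, with a mean 2.36 times that of all genes. Erythroid genes and haem and iron genes had 1.59 times, granulocyte and macrophage genes 1.49 times and megakaryocyte genes 1.42 times. Housekeeping and stem and progenitor genes both had 1.36 times, the T and NK cell, muscle, B cell, mast cell and hepatocyte lists between 0.919 and 1.09 times, and neuron genes 0.440 times. The weak share of these distal regions was 41.9% for erythroid, 47.0% for megakaryocyte and 45.7% for transcription factor genes, and 47.9% over all genes. Stat5a, which acts below the erythropoietin receptor, had 12 weak and 8 passing regions, most of the weak ones in introns of its neighbours Stat5b and Stat3. The highest of these had folds of 3.62 and 5.01 (chr11:100840941-100841476). Bcl11a, a repressor of fetal globin genes, had 9, of which 8 lay inside the gene, and only the region at chr11:24122951-24123301 was called in both libraries, with 2.58 and 3.02. Fli1 had 8 weak and 10 passing regions, 3 of the weak ones called in both libraries.

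Among erythroid genes, the carbonic anhydrase genes Car1 and Car2, which are neighbours, had 7 weak regions each, 1 of them counted for both. At Car1 none was called in both libraries, 5 were called in neither, and 3 of the 4 inside the gene held a GATA match. Trim10 had 6, the highest with folds of 6.17 and 4.43 and a CTCF match (chr17:36914191-36914500). Among megakaryocyte genes, Cd9 and Vwf, also neighbours, and Gp1ba, of the von Willebrand factor receptor, had 7 each, and 3 of these were counted for both Cd9 and Vwf. The highest at Gp1ba lay in an intron of Mink1 with 5.45 and 4.46 (chr11:70597283-70597898). Among stem and progenitor genes, Flt3, a cytokine receptor, had 6, Slamf1 5 and Cd34 4. At Slamf1 the region 5.26 kb upstream had 3.67 and 4.20, and no promoter region was called.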

How the data were processed

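ATAC-seq of 2 MEP libraries was used as deposited peak lists on mm10. The deposited ratio column is a fold per peak, read as enrichment of the summit over its surroundings, with no scaling from library to library. Significance per peak is deposited as −log10 p and grows with depth. The deposited score is the −log10 global IDR of the ranking of both libraries. Alignments after filtering and a set of excluded regions were the authors' input, and the archived replicated list came from a pair of other files, per the labels' read-me texts. The aligner, the caller of peaks and any Tn5 shift were not given in the sources used here. Pseudoreplicates, in the usual meaning of the term, are random splits of a library and not independent samples. Reads were not used here and depth is unknown. In the ranking, 8 columns of values per library were not used.

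Overlapping or touching peaks were merged, and each region carries the summit, fold and significance of its most significant peak. Its fold in a library is that of the most significant peak of that library's merged region, by any overlap. The annotation was GENCODE M21 with 21853 protein-coding genes. Shares were compared by two-sided Fisher's exact tests and centre with flank by exact McNemar tests, with Benjamini-Hochberg adjustment, a threshold of 0.05 and a smallest p of 1e-300, in Python 3.11.15 with SciPy 1.17.1. Tests were checked on simulated regions drawn independently of each other, so that check could not show an effect of dependence between regions. Regions are not replicates, and intervals cover counting error only. Members, lists, motifs and tests were chosen with earlier results of these data known. Alternatives covered other lists, windows, widths, and each library alone.

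By rule the text names weak-only promoters of list genes (up to 8 by pooled fold for erythroid, megakaryocyte and transcription factor lists, up to 2 for others), the 3 genes per list with most weak distal regions for 4 lists, the 5 promoter and 10 distal regions of highest fold, and 5 genes each by number and density of weak regions in the body. The printed windows exclude chromosome 18. Some genes that the rule or the marker check covers are not reported here.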

Additional observations from a re-analysis of the deposited data

Results flagged for a closer look

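The ranking of peaks by IDR between the libraries held peaks outside the replicated list, a signal in data that the comparisons did not use. Of its 129103 peaks, 283 lay on sequences other than chromosomes 1 to 19, X and Y. Another 1085 lay on these chromosomes and were absent from the replicated list, and 805 of those had an IDR above 0.05, the range of the weak regions. The rest had an IDR of at most 0.05. All 79660 peaks of passing regions were in the conservative list, which held 79774, so some of its peaks lay outside the replicated list. The promoter states and distal counts of genes did not use such peaks.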

How the results depend on the processing

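Of 457 recomputed values, 361 kept their direction and side of the threshold or stayed within 1.5 times. An alternative that set how much of a region conservative peaks must cover gave the same 37786 weak regions. Its values could not differ, and they count among the 361. With the archived list there were 148601 weak regions. Regions of 150 to 400 bp gave odds ratios of 0.957 for promoters, 1.02 for exons and 0.919 between genes. In share they left 5 motifs higher (2 at all widths) and 1 lower (7 at all widths) in weak regions, and GATA (1.20), the composite (1.00), KLF (1.02) and C/EBP (1.01) were reversed. In the centre against the flank, weak against passing, they left 2 motifs lower (7 at all widths), with GATA (1.13), C/EBP (1.13) and MEIS (1.04) reversed. Windows of 50 bp to either side gave 1 motif with a higher share and 0 with a higher ratio of centre to flank than passing regions (4 by the reported windows), with C/EBP reversed (1.07). The flank at 1 kb gave 1 motif with a higher ratio, reversed MEIS (1.02) and, within weak regions, C/EBP (1.02). The pooled IDR-thresholded list reversed the RUNX share (0.995), gave 1 weak-only erythroid promoter, and reversed the distal counts per gene relative to all genes of mast (1.05), B cell (0.936) and T and NK cell genes (0.971). The cause of these changes was not tested.

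Each library alone gave 34414 to 35605 weak regions and odds ratios of 0.279 to 0.304 for promoters, 1.40 for exons in both, 1.71 to 1.75 for introns, 1.44 to 1.55 between genes and 0.230 to 0.249 for CpG-rich regions. From 1 to 2 motifs had a higher share and from 6 to 7 a lower one, 11 were higher in the centre of weak regions, and 1 had a higher and 5 to 6 a lower ratio than passing regions. Without replicate 1 and replicate 2 in turn, shares were reversed for RUNX (0.967 and 0.984), ETS (0.974 and 0.925), CTCF (1.01 and 1.09) and MEIS (0.992 and 0.995), centre against flank for STAT (0.936 and 0.994), and its difference from passing regions for ETS (0.948 and 0.960) and CTCF (1.07 and 1.12). Weak-only promoters numbered 2331 to 2338 over all genes, 2 for erythroid, 8 to 12 for megakaryocyte and 4 to 5 for transcription factor genes. No paired analysis was possible because there is 1 group. Depth is unknown, so whether deeper libraries would move weak regions past the threshold was not tested.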

Other observations

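Weak regions inside gene bodies were found in 9354 of 21853 protein-coding genes (42.8%), and 2643 of these genes held no passing region. By number, the spans annotated as Gm20388 (171 weak regions in 4435 kb) and Fgfr2 (69 in 2961 kb) came first, and these spans contain 71 and 29 other protein-coding genes. They were followed by Foxp1, a forkhead transcription factor gene, with 38 weak and 20 passing regions in 597 kb, by Pde4d, a phosphodiesterase gene, with 38 and 43 in 1504 kb, and by Sox5, with 31 and 27 in 954 kb.

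By density, among genes over 10 kb with at least 5 weak regions, Itga5, the fibronectin receptor subunit, had 6 weak and 2 passing regions in 22.5 kb. Parvg, an adaptor of integrin-linked kinase, had 5 weak regions and 0 passing ones in 18.9 kb. Ugcg, which makes glucosylceramide, had 8 weak and 4 passing regions in 33.6 kb, Arl6ip5 had 5 and 2 in 22.6 kb, and Bag3, a co-chaperone gene, 5 and 1 in 23.4 kb. These genes were ranked by the counts given, so the counts carry no test.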
